A study of Mus musculus with 58 samples.

Results

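Retinas of control mice collected at ZT17 were compared with retinas of control mice collected at ZT13. Zeitgeber time (ZT) counts hours from lights on, and the lights went off at ZT12, so the comparison covers the early night, from 1 h to 5 h after dark onset. The libraries were taken by the genotype and time in their labels: 5 libraries of control retina at ZT17 and 5 at ZT13, 10 of the 58 libraries in the series, which holds 6 times of day and 2 genotypes. All mice were 4-month-old males on a C57BL/6 background kept from birth in alternating light and dark phases with free access to food. Controls were wild type male littermates of the heterozygous Ins2Akita males, and the diabetic mice used for comparison below were the hyperglycaemic heterozygotes, with 4 libraries at each of the same times. Each library came from total RNA of dissected retina after perfusion with cold saline, depleted of ribosomal RNA, and night samples were handled under dim red light.

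The retina keeps time with its own circadian clock and also responds directly to light and dark. At night photoreceptors are depolarised and their cyclic GMP-gated channels stay open, which makes darkness the phase of highest energy use in the outer retina, while dopamine, the retinal signal of the day, is low and cyclic AMP in photoreceptors is high. Proteins of the outer segment are renewed continuously through the endoplasmic reticulum (ER), whose folding capacity is set by the unfolded protein response, and body temperature of a nocturnal rodent is higher during the active night, to which heat shock and cold-inducible genes respond.

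Depth was 9564862 to 16663555 counted reads per library at ZT13 (median 11990891) and 15656408 to 19929725 at ZT17 (median 16276456), so the ZT17 libraries were the deeper group. Marker genes of rods summed to 37849 to 50813 CPM (counted reads scaled to a common library size) at ZT13 and 42655 to 52543 CPM at ZT17, and blood markers to 0.818 to 1.88 and 0.705 to 2.12 CPM. Markers of the retinal pigment epithelium varied widely between libraries, from 66.7 to 271.0 CPM at ZT13 and from 131.2 to 291.3 CPM at ZT17. Of these 10 markers 0 were called. Lens markers summed to 2.30 to 2.83 CPM at ZT13 and 2.32 to 2243 CPM at ZT17, the top value being that of ZT17 replicate 5, in which Cryaa, the main lens crystallin, reached 16480 counts. ZT17 replicate 4 held 178 Cryaa counts and no other library of these 10 more than 7. Genes rich in G and C read relatively high in 3 libraries: the mean log2 difference between the genes in the top and the bottom quartile of GC content was 0.58 in ZT17 replicate 1, 0.73 in ZT17 replicate 3 and 0.27 in ZT13 replicate 4, against -0.35 to -0.00 in the other libraries of these groups. These 3, called the steep-GC libraries here, are those with a positive trend. Trends of the opposite sign were as large as that of ZT13 replicate 4 in ZT13 replicate 2 (-0.35) and ZT13 replicate 3 (-0.28), which were kept. Counts of genes were therefore also taken with GC and length offsets and without those 3 libraries, and the named genes that lost their call there are given at the end. In tissue RNA, fewer cells of a type and less RNA per cell cannot be told apart.

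Between ZT13 and ZT17, 635 of 19120 genes tested differed (3.32%), 306 of them higher at ZT17 (1.60%) and 329 lower (1.72%), at an adjusted p under 0.05 in edgeR's quasi-likelihood test with Benjamini-Hochberg adjustment over all tested genes. The differences were mostly modest: the median was 1.27-fold among the genes that rose and 1.35-fold among those that fell, and 18 risen and 45 fallen genes exceeded 1 on the log2 scale. All 5 ZT17 libraries lay above all 5 ZT13 libraries for 189 of the 306 risen genes, and below them for 160 of the 329 fallen genes. Over all genes tested, the corresponding shares were 1.81% and 1.68%. Of the risen genes, 290 were annotated as protein-coding, and of the fallen genes 263. Gene models without an established name made up 17 of the risen and 70 of the fallen genes, and the median level of the fallen genes was 19.7 CPM against 76.2 CPM for the risen. With GC and length offsets, 473 genes were higher (2.47%) and 323 lower (1.69%), so that 59.4% of calls were rises against 48.2% without offsets. Upper-quartile scaling also moved this share, to 58.6%. The calls shared in direction between the fit with offsets and that without numbered 239 rises and 204 falls. Without the 3 libraries with the steep GC trend, 71 genes were higher and 61 lower, and 65 rises and 55 falls were called in all 3 of these fits. The count also depended on single libraries, from 190 without ZT17 replicate 3 to 1515 without ZT13 replicate 4, and it was 60 when only these 10 libraries entered the fit.

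**Figure D1:**
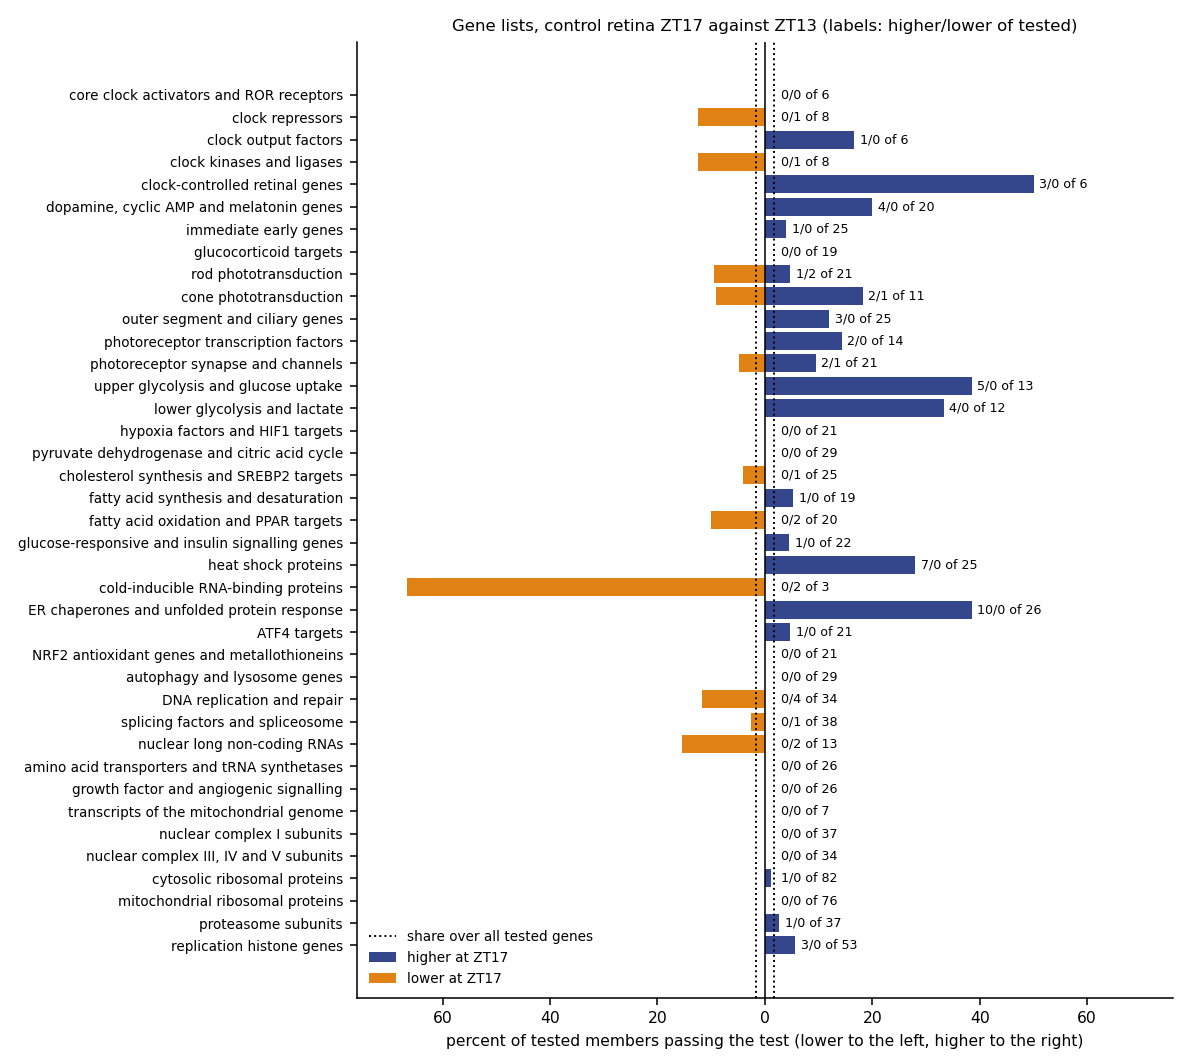
Share of the tested members of 39 gene lists that were higher (blue, to the right) or lower (orange, to the left) at ZT17 than at ZT13 in control retina, in percent, with the counts printed as higher/lower of tested. The dotted lines mark the shares over all genes tested, 1.60% and 1.72%. The bars for ER chaperones (10 of 26), heat shock proteins (7 of 25) and both glycolysis lists (5 of 13 and 4 of 12) extend to the right only.

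ER chaperones and folding enzymes had the most calls of the 39 lists by count. Shorter lists had an equal or larger share: clock-controlled retinal genes with 3 of 6 higher, cold-inducible genes with 2 of 3 lower and upper glycolysis with 5 of 13 higher. Of 26 tested genes of the ER chaperone and unfolded protein response list, 10 rose at ZT17 and 0 fell, with a median log2 difference of 0.29 over the list against -0.01 over all genes tested. The 10 were Hspa5 (BiP, the main Hsp70 of the ER), Hyou1 (its nucleotide exchange factor), Sdf2l1 (a BiP cofactor), Calr (calreticulin, the lectin chaperone of glycoproteins), the protein disulfide isomerases Pdia3, Pdia4 and Pdia6, Creld2, Manf (a secreted and ER-resident trophic factor) and Xbp1, the transcription factor that drives many of the others when its mRNA is spliced. Of the same list, 15 members rose with GC and length offsets, 9 without the 3 libraries with the steep GC trend, and 10 without the 2 libraries that held lens transcripts, where 1 member was lower. Between 9 and 11 rose when single libraries were left out.

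Promoter sequences of Hspa5, Calr, Pdia6 and Creld2 are shown because each holds the ER stress response element, CCAAT and CCACG with any 9 bases between them, the site through which ATF6 and XBP1 are known to act. The windows are the 250 bases before the RefSeq start on GRCm38.p6, written 5′ to 3′ on the gene's own strand, with the element in capitals. It reads on the opposite strand in Calr and Creld2.
Hspa5, chr2:34771840-34772089, plus strand: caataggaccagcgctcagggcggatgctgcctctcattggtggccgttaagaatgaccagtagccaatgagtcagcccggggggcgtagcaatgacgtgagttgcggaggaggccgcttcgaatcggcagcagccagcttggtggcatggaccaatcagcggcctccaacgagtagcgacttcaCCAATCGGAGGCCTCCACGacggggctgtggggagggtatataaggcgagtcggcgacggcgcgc
Calr, chr8:84846932-84847181, minus strand: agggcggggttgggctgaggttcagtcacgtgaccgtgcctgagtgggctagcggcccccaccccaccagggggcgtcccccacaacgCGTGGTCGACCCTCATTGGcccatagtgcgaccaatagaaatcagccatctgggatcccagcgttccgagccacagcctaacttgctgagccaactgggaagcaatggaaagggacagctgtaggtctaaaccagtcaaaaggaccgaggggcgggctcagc
Pdia6, chr12:17266339-17266588, plus strand: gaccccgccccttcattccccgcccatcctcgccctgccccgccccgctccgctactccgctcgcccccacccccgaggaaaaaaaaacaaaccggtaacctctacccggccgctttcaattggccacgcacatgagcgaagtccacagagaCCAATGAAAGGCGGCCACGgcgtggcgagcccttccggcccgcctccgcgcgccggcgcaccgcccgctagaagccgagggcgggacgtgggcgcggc
Creld2, chr15:88819396-88819645, plus strand: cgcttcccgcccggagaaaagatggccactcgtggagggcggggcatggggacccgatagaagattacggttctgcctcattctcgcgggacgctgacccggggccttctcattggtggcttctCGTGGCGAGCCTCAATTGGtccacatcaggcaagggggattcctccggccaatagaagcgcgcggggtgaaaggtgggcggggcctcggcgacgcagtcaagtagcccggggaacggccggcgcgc
The element was found on either strand in 33 of 27025 promoters of that length (0.122%), in 19 of the 11936 tested genes that have one (0.159%), in 4 of 228 risen genes (1.75%), these 4, and in 0 of 233 fallen genes. It was also present in Hsp90b1, Canx, Derl3, Dnajc3 and Syvn1 of the same list, which did not pass the test. A match of letters is a description of these windows only. The Hspa5 element lies 65 to 47 bases before the start, the Pdia6 element 98 to 80, the Creld2 element 126 to 108 and the Calr element 162 to 144.

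The Gencode span of Hspa5, chr2:34771970-34777547, starts within the RefSeq promoter window shown above. Hspa5 stood at 161, 135, 175, 123 and 155 CPM in the 5 ZT13 libraries and at 188, 312, 219.9, 256 and 263 CPM in the 5 ZT17 libraries. The groups did not overlap, and the lowest ZT17 value belonged to replicate 1. The log2 difference was 0.73 (SE 0.11, adjusted p = 2.07e-05, edgeR's quasi-likelihood test). Calr measured 231, 191, 237, 263 and 228 CPM at ZT13 and 406, 362, 432, 399 and 461 CPM at ZT17, again without overlap, a 1.79-fold rise (adjusted p = 2.78e-06, edgeR). Manf was the tightest of the group, at 23.9, 23.2, 23.4, 25.4 and 25.5 CPM at ZT13 against 41.8, 42.4, 43.5, 40.5 and 40.3 CPM at ZT17 (log2 0.78, SE 0.10, adjusted p = 1.02e-06, edgeR). Its spread within either time was small beside the gap between them. Xbp1 went from 49.9 ± 7.59 to 80.5 ± 9.39 CPM (mean ± SD, n = 5 each; adjusted p = 1.64e-06, edgeR) and Hyou1 from 108 ± 4.89 to 154 ± 7.16 CPM (n = 5 each; adjusted p = 1.68e-06, edgeR), with all ZT17 libraries above all ZT13 libraries for both.

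Sdf2l1 showed the largest rise of the list, 2.03-fold, from a low level of 3.37 ± 0.868 CPM to 6.89 ± 1.28 CPM (n = 5 each; adjusted p = 9.25e-04, edgeR). The 3 disulfide isomerases rose less, by 0.46 (Pdia6), 0.41 (Pdia3) and 0.35 (Pdia4) on the log2 scale, and Creld2 by 0.54. For Pdia3, ZT17 replicates 1 and 3, which have the steep GC trend, read 102 and 109 CPM, within the ZT13 range of 90.9 to 109.7 CPM, whereas replicates 2, 4 and 5 read 142 to 160.1 CPM. Pdia4 lost its call when ZT13 replicate 2 or ZT17 replicate 3 was left out (largest adjusted p = 0.06, edgeR), and without the 3 steep-GC libraries (adjusted p = 0.174). Creld2 also fell short there (adjusted p = 0.0628).

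The remaining ER genes did not pass. Hsp90b1 (Grp94, the ER Hsp90) had a log2 difference of 0.35 (adjusted p = 0.0621, edgeR), and it did pass with GC and length offsets (adjusted p = 3.57e-05). Its ZT17 values were 230.5, 369, 213, 351 and 356 CPM, low in replicates 1 and 3 and high in the other libraries. The stress sensors Atf6 (0.12, adjusted p = 0.128), Ern1 (-0.10, adjusted p = 0.330) and Eif2ak3 (-0.01, adjusted p = 0.926) had small log2 differences in the same edgeR fit. Canx, the membrane-bound partner of calreticulin, had a log2 difference of 0.07, and Dnajb9, an ER J-protein, one of -0.34. Atf6 and Canx, like Hsp90b1, were called with GC and length offsets. Ddit3 (CHOP), the proapoptotic factor of prolonged ER stress, which was counted under ATF4 targets, rose from 20.8 ± 1.60 to 26.6 ± 2.92 CPM (n = 5 each; adjusted p = 0.0323, edgeR) as the only one of the 21 members of that list, and lost its call without any of ZT13 replicates 1 and 2 or ZT17 replicates 1 and 3 (largest adjusted p = 0.16, edgeR).

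**Figure D2:**
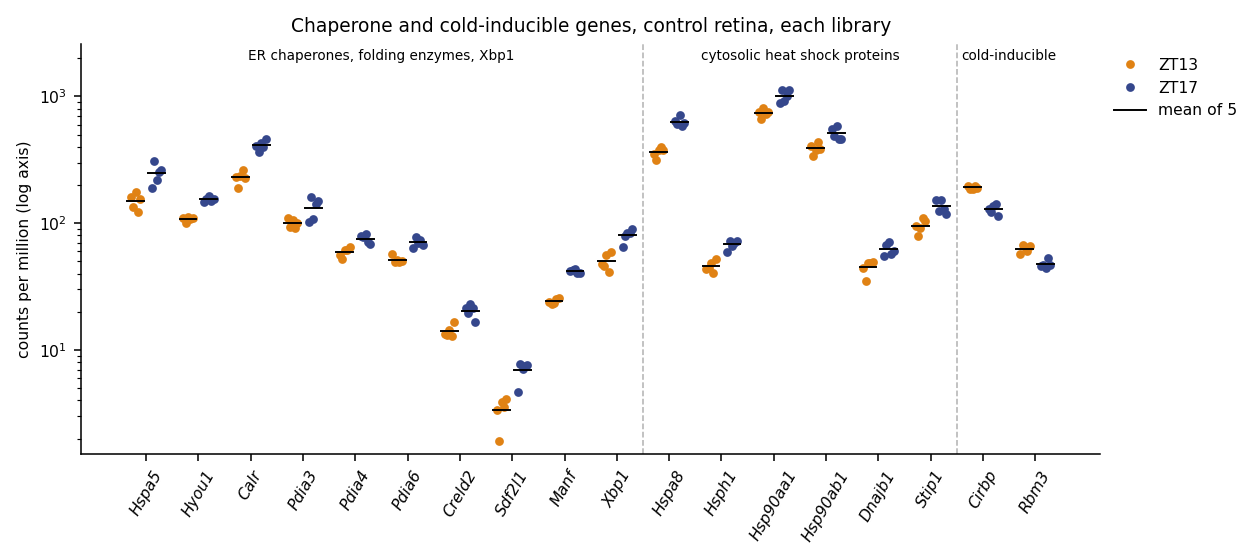
Level of 18 genes in each control library in CPM on a log axis, ZT13 in orange and ZT17 in blue, with the mean of 5 libraries as a bar. All ER genes and cytosolic heat shock genes shown have a higher mean at ZT17, with overlap for Pdia3 and Creld2, while Cirbp and Rbm3 have lower values in all ZT17 libraries.

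Genes of heat shock proteins were also called higher, and 2 of 3 cold-inducible RNA-binding proteins fell. Of 25 tested heat shock genes, which are mostly cytosolic and include the mitochondrial chaperones Hspd1 and Hspe1, 7 rose and 0 fell, with a list median of 0.28. Between 4 and 10 rose when single libraries were left out. Hspa8, the constitutive Hsp70 that also uncoats clathrin vesicles at photoreceptor terminals, stood at 349.6, 314, 381, 401 and 375 CPM at ZT13 and 646, 602, 711, 590.0 and 621 CPM at ZT17. No ZT17 library came near the ZT13 range, and the rise was 1.74-fold (adjusted p = 8.28e-06, edgeR). Hsp90aa1, the inducible cytosolic Hsp90, moved from 744 ± 50.6 to 1008 ± 112 CPM, Hsp90ab1, the constitutive form, from 389 ± 35.1 to 512 ± 56.2 CPM, and Hsph1, the Hsp110 exchange factor, from 45.7 ± 4.64 to 67.95 ± 5.28 CPM (mean ± SD, n = 5 each). Their groups did not overlap, nor did those of the co-chaperones Dnajb1 (45.2 ± 5.88 and 62.3 ± 6.53 CPM) and Stip1 (95.9 ± 11.5 and 136 ± 16.6 CPM). The adjusted p from edgeR was 2.80e-04 for Hsph1, 3.46e-04 for Hsp90aa1, 0.00431 for Stip1, 0.0135 for Hsp90ab1 and 0.0138 for Dnajb1.

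The seventh was Cryab, a small heat shock protein that is also a lens crystallin. It read 31.5, 20.1, 33.7, 27.6 and 367 CPM at ZT17 against 18.7, 16.8, 16.9, 23.3 and 16.7 CPM at ZT13, and without ZT17 replicate 5, the library with the most lens transcripts, its log2 difference was 0.605 in place of 2.37 (adjusted p = 0.564, edgeR). Of the other 4 ZT17 libraries, replicates 1, 3 and 4 also lay above every ZT13 library. The call was further lost without any of ZT13 replicates 1, 2, 3 and 5 or ZT17 replicate 3. Hsp90ab1 and Dnajb1 each lost the call without ZT13 replicate 2 or ZT17 replicate 3, and 3 of the 7 were called without the 3 steep-GC libraries. The stress-induced pair Hspa1a and Hspa1b, which share most of their sequence so that reads cannot be assigned to one with certainty, had log2 differences of 0.30 and 0.43 (adjusted p = 0.101 and 0.0585, edgeR), and Hsf1, the heat shock transcription factor, one of 0.09 (adjusted p = 0.678). The mitochondrial chaperone Hspd1 had 0.04 (adjusted p = 0.784). Hspa1b was called with DESeq2, with upper quartile factors and without ZT17 replicate 5.

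Cirbp, whose RNA accumulates when cells are mildly cooled, fell from 198, 185, 187, 197 and 190.5 CPM to 129.9, 123, 136, 141 and 114 CPM. The highest ZT17 library lay below the lowest ZT13 library by a wide margin relative to either spread, and the fall was 1.49-fold (adjusted p = 1.14e-05, edgeR). Rbm3, the other cold-shock RNA-binding protein, fell from 62.9 ± 4.22 to 47.4 ± 3.44 CPM (n = 5 each; adjusted p = 0.00536, edgeR) and also without overlap. The Rbm3 call was lost with GC and length offsets, where its log2 difference was -0.19 (adjusted p = 0.297). Its exons have a lower GC content than the median tested gene, and the cause of the loss was not tested. Srsf5, the last of the 3 genes in this list, had a log2 difference of -0.18 (adjusted p = 0.278). Body temperature was not measured in these data.

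Sik2 had the smallest adjusted p of all genes. It encodes a salt-inducible kinase that is switched off by cyclic AMP signalling and holds CREB coactivators in the cytoplasm. Its level was 127, 146, 148, 152 and 162 CPM at ZT13 and 239, 230.2, 272, 320.3 and 324 CPM at ZT17, a 1.89-fold rise (log2 0.92, SE 0.10, adjusted p = 7.35e-09, edgeR). All ZT17 libraries lay well above all ZT13 libraries. A stretch of its exons overlaps Ppp2r1b on the other strand, and whether the counting used strand is not given in the sources used here. Pde8b, a phosphodiesterase with high affinity for cyclic AMP, rose from 129, 146, 141, 148 and 147 to 202, 198, 192, 204 and 198 CPM, with less spread than Sik2 and no overlap (adjusted p = 2.54e-07, edgeR). Its paralogue Pde8a rose from 84.01 ± 6.27 to 116 ± 8.94 CPM (n = 5 each; adjusted p = 1.77e-04), and Pde4dip, which anchors phosphodiesterase 4D at centrosome and Golgi, from 346 ± 11.9 to 432 ± 14.1 CPM (adjusted p = 2.03e-05).

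In the list of dopamine, cyclic AMP and melatonin genes, 4 of 20 tested members rose and 0 fell, with a list median of 0.02. Besides Pde8a they were Drd4, the photoreceptor dopamine receptor that lowers cyclic AMP, Drd2, the dopamine receptor of amacrine cells and other neurons, and Gnaz, an inhibitory G protein alpha subunit. Drd4 read 165, 182, 194, 317 and 261 CPM at ZT13 and 326, 256, 411, 381 and 362 CPM at ZT17. ZT13 replicates 4 and 5 were high within their group and ZT17 replicate 2 low, so the groups overlapped, and the difference was 1.55-fold (adjusted p = 0.00285, edgeR). Gnaz rose from 154 ± 33.5 to 237 ± 33.8 CPM (adjusted p = 0.00117) with overlap, and Drd2 from 34.8 ± 3.41 to 48.9 ± 7.17 CPM (n = 5 each; adjusted p = 0.00309) without overlap. The Drd2 call was lost without the 3 steep-GC libraries (adjusted p = 0.112).

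Few genes of the core clock passed the test between these times. Of 8 clock kinases and ligases 0 were higher and 1 lower, with 0 calls under GC and length offsets and 0 to 1 lower when single libraries were left out. Among 6 clock activators and ROR receptors 0 passed in edgeR or in DESeq2, and their log2 differences ran from -0.18 to 0.39. At an unadjusted p under 0.05 in edgeR 1 of the 6 was higher and 1 lower, against 1943 higher and 2210 lower of all 19120 genes tested. With GC and length offsets 1 of the 6 was called higher, the ROR receptor gene Rorb (log2 0.35, adjusted p = 5.40e-04, edgeR). Arntl (Bmal1) had a log2 difference of 0.13, Clock of -0.18 and Npas2 of -0.01 (adjusted p = 0.281, 0.179 and 0.974, edgeR). The repressors Per1 (0.11), Per2 (0.01), Per3 (-0.12), Cry1 (0.01), Cry2 (0.02), Nr1d1 (0.17) and Nr1d2 (-0.28) did not pass on the same scale either. Nr1d1 shares exon bases with Thra on the opposite strand. Ciart (Chrono), which represses CLOCK and BMAL1, was the exception among the 8 repressors. It read 12.4, 13.7, 10.7, 11.9 and 15.4 CPM at ZT13 and 12.3, 6.74, 10.04, 6.60 and 8.44 CPM at ZT17, with ZT17 replicate 1 inside the ZT13 range (log2 -0.55, SE 0.15, adjusted p = 0.0259, edgeR). The call was lost without ZT13 replicate 2 or 5 or ZT17 replicate 2 or 4 (largest adjusted p = 0.0821) and was kept with GC and length offsets (adjusted p = 0.00552).

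The Ciart promoter is shown because it holds the E-box CACGTG, the site of CLOCK and BMAL1, 3 times, in capitals in the 250 bases before its RefSeq start (GRCm38.p6).
Ciart, chr3:95882229-95882478, minus strand: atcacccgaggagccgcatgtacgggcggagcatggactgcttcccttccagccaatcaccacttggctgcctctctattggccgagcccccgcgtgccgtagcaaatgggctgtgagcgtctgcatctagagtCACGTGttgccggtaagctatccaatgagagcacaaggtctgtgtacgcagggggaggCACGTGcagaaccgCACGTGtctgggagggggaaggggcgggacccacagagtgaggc
The E-box reads the same on both strands. It was found in 1634 of 27025 promoters of this length (6.05%), in 16 of 228 risen genes (7.02%) and in 18 of 233 fallen genes (7.73%), so shares were close to that of the 11936 tested genes with a promoter (8.07%). Among the clock repressors, Cry1 and Per1 also held it.

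Nfil3, a repressor of D-box genes, rose from 11.96 ± 1.51 to 15.9 ± 2.49 CPM (n = 5 each; adjusted p = 0.0402, edgeR) as 1 of 6 clock output factors, while Dbp, an activator at the same sites, had a log2 difference of -0.13. Nfil3 was lost with the offsets (adjusted p = 0.0549) and without any of ZT13 replicates 1, 2 and 3 or ZT17 replicates 3 and 5 (largest adjusted p = 0.218). Dbp was called lower with the offsets (log2 -0.25, adjusted p = 0.0269, edgeR), so that the output factors went from 1 higher and 0 lower to 0 higher and 1 lower.

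By contrast, 3 of 6 clock-controlled retinal genes rose and 0 fell, with a list median of 0.35. They were Drd4, Cys1 (cystin, a protein of primary cilia) and Plekhb1 (evectin, a membrane protein of photoreceptors). Plekhb1 stood at 665, 564, 721, 848 and 707 CPM at ZT13 and 1071, 958, 1146, 1042 and 1001 CPM at ZT17, with no overlap (adjusted p = 2.07e-05, edgeR). Cys1 moved from 13.2 ± 1.36 to 19.6 ± 2.17 CPM (n = 5 each; adjusted p = 0.00274). The other 3 members did not pass, among them Adcy1, the calcium-activated adenylyl cyclase of photoreceptors (671 ± 23.5 and 595 ± 51.9 CPM; adjusted p = 0.0926), which was lower with GC and length offsets (adjusted p = 0.00391). All 3 rises were also called with the offsets and without the 3 steep-GC libraries.

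**Figure D3:**
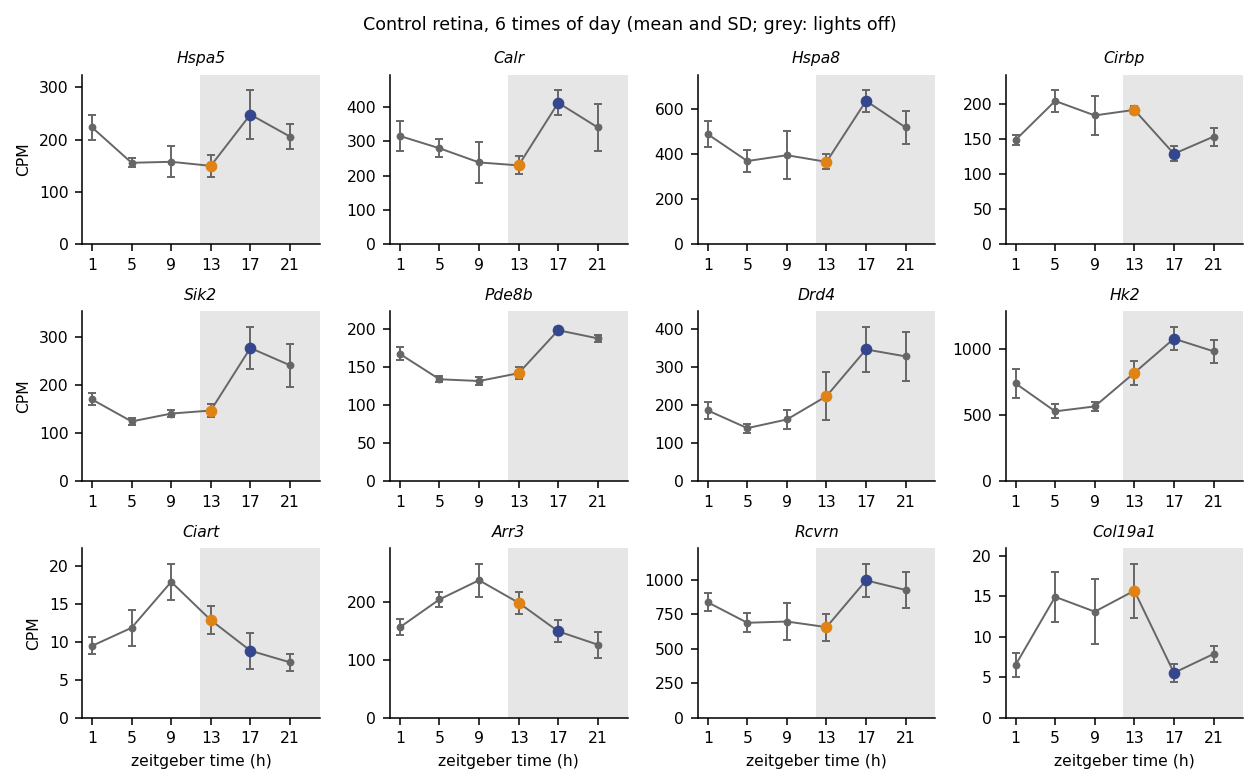
Mean and SD of 12 genes in control retina at ZT1, ZT5, ZT9, ZT13, ZT17 and ZT21 in CPM (5 libraries at most times, 6 at ZT5 and 4 at ZT21), with the dark phase shaded and the compared times in orange (ZT13) and blue (ZT17). Hspa5, Calr, Hspa8, Sik2, Pde8b, Drd4, Hk2 and Rcvrn have their highest mean at ZT17, Cirbp and Col19a1 their lowest mean at ZT17, and Ciart and Arr3 their lowest mean at ZT21.

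The other times of day place these levels in the cycle. The mean of Hspa5 was 223, 156, 158, 149.7, 248 and 206 CPM at ZT1, ZT5, ZT9, ZT13, ZT17 and ZT21, so the level at ZT13 was near those of ZT5 and ZT9 and the highest mean came at ZT17. Sik2 ran 170.0, 124, 140.5, 147, 277 and 241 CPM at the same times, and Cirbp 148, 204, 184, 191, 129 and 153 CPM, with its lowest mean at ZT17. Hk2 differed in shape, at 740.5, 528, 566, 821, 1079.8 and 984 CPM, since its ZT13 mean already lay above those of ZT5 and ZT9. These values are descriptive, and no test was run over the other times.

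Photoreceptor genes moved in both directions. Of 21 rod phototransduction genes 1 rose and 2 fell, and of 11 cone genes 2 rose and 1 fell, with list medians of 0.03 and -0.03. Recoverin (Rcvrn), a calcium sensor of phototransduction, was at 667, 521, 624, 793 and 677 CPM at ZT13 and 1090.4, 868, 1152, 928 and 935 CPM at ZT17. All ZT17 values exceeded all ZT13 values, and the rise was 1.52-fold (adjusted p = 1.83e-04, edgeR). The arrestins, which shut off activated opsins, went the other way: rod arrestin Sag fell from 3210.3 ± 223 to 2677 ± 360.1 CPM (adjusted p = 0.0369) and cone arrestin Arr3 from 199 ± 19.1 to 149.6 ± 18.8 CPM (n = 5 each; adjusted p = 0.0106). Guca1b (GCAP2), the calcium-dependent activator of retinal guanylyl cyclase, fell from 876 ± 82.7 to 729 ± 64.6 CPM (adjusted p = 0.0387). Each of the 3 had 1 library or more inside the other group's range.

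Sag lost its call without any of ZT13 replicates 1, 3 and 5 or ZT17 replicates 3, 4 and 5 (largest adjusted p = 0.121, edgeR), Guca1b without the same or ZT17 replicate 1 (0.117) and Arr3 without ZT17 replicate 3 (0.0597). Rod transducin alpha (Gnat1) had a log2 difference of 0.29, and the cone opsins Opn1sw and Opn1mw 0.15 and 0.05 (adjusted p = 0.176, 0.320 and 0.816). None of these 3 passed. In cones, the channel subunit Cnga3 rose from 13.4, 12.7, 14.99, 16.7 and 15.3 to 25.2, 21.6, 20.5, 19.6 and 22.1 CPM, with the groups apart (adjusted p = 5.04e-04, edgeR), and transducin gamma Gngt2 from 29.6 ± 4.69 to 40.95 ± 7.11 CPM with overlap (n = 5 each; adjusted p = 0.0106). Gngt2 was lost without ZT13 replicate 2 or ZT17 replicate 1 or 3 (largest adjusted p = 0.0705).

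Among outer segment and ciliary genes 3 of 25 rose and 0 fell: Nphp4, a ciliary transition zone protein, from 52.4 ± 5.71 to 73.5 ± 9.26 CPM, Cdhr1, a cadherin at the base of forming discs, from 1151 ± 72.3 to 1378 ± 114 CPM, and Impg1, a proteoglycan of the matrix between photoreceptors, from 365 ± 17.5 to 416 ± 15.9 CPM (n = 5 each). Adjusted p from edgeR was 2.80e-04, 0.0163 and 0.0433, and only Nphp4 was called in every fit that left out a single library. Impg1 was lost in 7 of these 10 fits (largest adjusted p = 0.162). Of 14 photoreceptor transcription factors, Mef2d (0.44) and Esrrb (0.39) rose (adjusted p = 0.0446 and 0.0153), whereas Crx and Nrl had log2 differences of 0.20 and 0.04 and did not pass. Neither of these rises was called without ZT13 replicate 2, ZT17 replicate 1 or ZT17 replicate 3 (largest adjusted p = 0.196 and 0.106), nor was that of Cdhr1 (0.0847).

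Of 21 genes of the photoreceptor synapse and its channels, 2 rose and 1 fell. Cacna2d4, the calcium channel subunit of ribbon synapses, rose from 709.9 ± 49.2 to 826 ± 61.9 CPM (n = 5 each; adjusted p = 0.0417, edgeR). Its call was not kept with GC and length offsets (adjusted p = 0.236), nor without ZT13 replicate 1, 2 or 3 or ZT17 replicate 1, 3 or 4 (largest adjusted p = 0.152).

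Small rises were called among glycolytic genes. Of 13 genes of glucose uptake and upper glycolysis 5 rose and 0 fell (median 0.24), and of 12 genes of lower glycolysis and lactate 4 rose and 0 fell (median 0.22). The 5 were hexokinase Hk2, the phosphofructokinases Pfkl and Pfkp, aldolase Aldoa and triosephosphate isomerase Tpi1, and the 4 were Pgam1, enolase Eno2, lactate dehydrogenase Ldha and the lactate exporter Slc16a3. Hk2, which binds mitochondria and supports aerobic glycolysis in photoreceptors, stood at 769, 683, 884, 862 and 905 CPM at ZT13 and 1028, 1119.9, 1132, 949 and 1169 CPM at ZT17. Its groups were adjacent without overlap (log2 0.40, SE 0.10, adjusted p = 0.0135, edgeR). Aldoa moved from 1804 ± 298 to 2474 ± 333 CPM (adjusted p = 0.0105) and Ldha from 748 ± 64.2 to 883 ± 65.8 CPM (n = 5 each; adjusted p = 0.0496), with overlap. Slc2a1, the glucose transporter of the outer retina, had a log2 difference of 0.30 (adjusted p = 0.0686).

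These calls lay close to the threshold, with adjusted p of 0.0229 (Tpi1), 0.0337 (Slc16a3), 0.0342 (Pfkl), 0.0419 (Pgam1), 0.0436 (Pfkp) and 0.0442 (Eno2) in edgeR. None of the 9 was called without the 3 steep-GC libraries, where the list medians were 0.215 and 0.207, and 0 to 7 members of each list were called when single libraries were left out. Every one of the 9 lost its call without ZT13 replicate 2 and without ZT17 replicate 3. With GC and length offsets 5 upper and 1 lower genes rose. No gene passed among 29 genes of pyruvate dehydrogenase and the citric acid cycle, 37 nuclear complex I subunits or 21 hypoxia factors and HIF1 targets, with medians of 0.03, 0.15 and 0.10. DESeq2 also called 0 in each. Leaving out single libraries gave 0 calls in the first list, 0 to 3 higher and 0 to 2 lower for complex I, and 0 to 3 higher and 0 to 1 lower for the hypoxia list, which also had 1 higher with GC and length offsets. At an unadjusted p under 0.05 in edgeR 4 genes of the first list were higher and 1 lower, 13 complex I genes higher and 3 lower, and 6 hypoxia genes higher and 1 lower. Over all 19120 genes tested, 1943 were higher and 2210 lower at that unadjusted threshold.

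Fatty acid oxidation had 2 of 20 members lower and 0 higher. Acadm, the medium-chain acyl-CoA dehydrogenase, fell from 83.2, 77.2, 85.5, 68.5 and 78.8 to 65.7, 64.2, 59.6, 56.9 and 54.9 CPM, and every ZT17 library lay under every ZT13 library (adjusted p = 9.18e-04, edgeR). Cpt1a, which brings long-chain acyl groups into mitochondria, fell from 211 ± 9.12 to 175 ± 11.9 CPM (n = 5 each; adjusted p = 0.0132) and, among the fits that left out a single library, missed the threshold without ZT13 replicate 3 (adjusted p = 0.0508). Its call was also lost without the 2 libraries with lens transcripts. Of 25 cholesterol synthesis genes 1 was lower, lanosterol synthase Lss (70.3 ± 2.69 and 59.8 ± 4.67 CPM; adjusted p = 0.0142). That count became 3 lower and 2 higher without ZT13 replicate 4 and 5 lower and 1 higher without ZT17 replicate 2. At an unadjusted p under 0.05 in edgeR 7 of the 25 were lower and 4 higher, against 2210 lower and 1943 higher of all 19120 genes tested.

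Among the fallen genes were DNA replication and repair factors. Of 34 tested members 4 fell and 0 rose, with a list median of -0.06. Mcm3, a subunit of the replicative helicase, read 2.34, 2.73, 2.31, 2.34 and 2.46 CPM at ZT13 and 1.33, 1.22, 1.13, 1.15 and 1.02 CPM at ZT17. It is a low-level transcript in the retina, yet its groups were far apart and the fall was 2.07-fold (adjusted p = 3.78e-04, edgeR). Brca2 fell from 24.9 ± 3.70 to 16.1 ± 4.27 CPM (adjusted p = 0.0180) and Xrcc5 (Ku80) from 24.8 ± 0.579 to 20.9 ± 2.07 CPM (n = 5 each; adjusted p = 0.0406). Without the 3 steep-GC libraries Mcm3 kept its call (adjusted p = 0.00783), and Brca2 and Xrcc5 did not. Brca2 also lost it without ZT13 replicate 2 or ZT17 replicate 1 or 3 (largest adjusted p = 0.107), and Xrcc5 in 7 of the 10 fits with 1 library left out (0.189).

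Hnrnpdl, an hnRNP protein that regulates its own splicing, dropped from 176, 191, 176, 167 and 180.3 to 120.1, 138, 115, 146 and 131 CPM with no overlap (adjusted p = 5.03e-06, edgeR), the only one of 38 splicing genes to pass (1.72% of all genes tested fell). At an unadjusted p under 0.05 in edgeR 14 of the 38 were lower and 3 higher, against 2210 lower and 1943 higher of all 19120 genes tested. The list median was -0.12, or -0.01 with GC and length offsets. The count of lower genes was 8 without ZT13 replicate 4, 5 without ZT17 replicate 2 and 7 without ZT17 replicate 4, each with 1 higher, and 11 with 1 higher without the 2 libraries with lens transcripts. Of 13 nuclear long non-coding RNAs Miat and Snhg11 fell, by 1.33 and 1.33 fold (adjusted p = 0.0226 and 0.0158). Miat was lost without ZT13 replicate 5 or ZT17 replicate 1, and Snhg11 without ZT13 replicate 2 or ZT17 replicate 1 (largest adjusted p = 0.0595 and 0.0896). Snhg11 was also lost with GC and length offsets (adjusted p = 0.0569), and neither passed without the 3 steep-GC libraries (adjusted p = 0.0664 and 0.136), where 0 of the 13 fell.

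Several fallen genes with the smallest adjusted p belong to no list. Glb1l2, a beta-galactosidase-like protein, was at 254, 253, 245, 203 and 234 CPM at ZT13 and 163, 173, 145, 149 and 170.0 CPM at ZT17, with no overlap (adjusted p = 8.34e-07, edgeR). Col19a1, a non-fibrillar collagen, fell 2.82-fold, from 19.5, 16.4, 17.6, 14.2 and 10.9 to 6.03, 6.18, 3.60, 6.16 and 5.82 CPM (log2 -1.49, SE 0.23, adjusted p = 2.22e-05). Every ZT17 value was under every ZT13 value, and replicate 3 was the lowest. Pdzph1 fell from 397 ± 45.6 to 243 ± 34.2 CPM (adjusted p = 5.56e-05), the histone deacetylase Hdac9 from 137 ± 5.63 to 109 ± 3.37 CPM (adjusted p = 1.08e-04) and Ankrd33b from 537 ± 49.5 to 424 ± 29.1 CPM (n = 5 each; adjusted p = 7.71e-04). Glmn fell from 93.8 ± 21.1 to 41.3 ± 15.2 CPM (adjusted p = 1.82e-04) and its neighbour Rpap2, with which it shares exon bases on opposite strands, from 17.98 ± 0.881 to 12.7 ± 2.08 CPM (adjusted p = 3.46e-04), so that the pair cannot be counted as separate evidence. Ppp1r3a, a glycogen-targeting phosphatase subunit, was scattered at ZT13, at 3.00, 1.36, 6.18, 0.739 and 0.582 CPM, and low throughout at ZT17, at 0.332, 0.276, 0.161, 0.577 and 0.192 CPM (adjusted p = 3.46e-04).

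The vomeronasal receptor gene Vmn2r1 was low at both times and fell from 4.35 ± 0.825 to 2.31 ± 0.673 CPM (n = 5 each; adjusted p = 7.61e-04, edgeR). All of its ZT17 values were under all of its ZT13 values, and the call was kept in every fit that left out a single library. Tmem267, a membrane protein, fell from 12.01 ± 3.31 to 6.24 ± 2.12 CPM (adjusted p = 0.00255) with overlap, and was likewise kept. It shares exon bases with genes on the opposite strand. Kif20b, a mitotic kinesin, fell from 4.92, 6.28, 4.72, 4.00 and 5.17 to 2.45, 4.14, 1.61, 3.59 and 1.73 CPM (adjusted p = 0.00991) with overlap, and was lost without ZT13 replicate 2 or ZT17 replicate 3 (largest adjusted p = 0.0660) and without the 3 steep-GC libraries (adjusted p = 0.154). Cd46, a complement regulator, fell from 6.19 ± 1.22 to 3.26 ± 0.911 CPM (adjusted p = 0.0304) without overlap. It was lost without any of ZT13 replicates 1, 2 and 3 or ZT17 replicates 1 and 3 (largest adjusted p = 0.132) and without the 3 steep-GC libraries (adjusted p = 0.285), and it too shares exon bases with genes on the opposite strand.

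On the rising side, Dip2b stood at 119 ± 3.62 and 166 ± 7.55 CPM (adjusted p = 1.13e-08, edgeR) and the palmitoyltransferase Zdhhc5 at 289 ± 29.3 and 451 ± 39.9 CPM (mean ± SD at ZT13 and ZT17, n = 5 each; adjusted p = 2.54e-07), both without overlap. Irf7, the transcription factor of type I interferon genes, read 11.9, 16.6, 16.03, 28.1 and 24.7 CPM at ZT13 and 40.7, 30.6, 60.5, 60.8 and 51.9 CPM at ZT17. The rise was 2.48-fold (adjusted p = 2.43e-06), and microglial markers summed to 40.5 to 49.9 CPM at ZT13 and 43.5 to 51.9 CPM at ZT17, ranges that overlap. Aqp1, a water channel of amacrine cells and also of ciliary and corneal cells, read 105, 102, 113, 136 and 134 CPM at ZT13 and 165, 175, 241, 202 and 259 CPM at ZT17 (adjusted p = 8.34e-07). No library of one time entered the range of the other. The 10 cornea and ciliary body markers, which include Aqp1, summed to 114.7 to 150.0 CPM at ZT13 and 182.5 to 285.0 CPM at ZT17. Of these the defining keratins Krt12, Krt5 and Krt14 were too low to be tested. Among the 5 tested, Aqp1 included, 1 was called higher, 4 differences were positive and 1 negative. Their median was 0.43, or -0.63 in diabetic retina. Cyp26b1, which degrades retinoic acid, rose 2.04-fold from 4.77 ± 2.06 to 9.88 ± 0.992 CPM (adjusted p = 0.00941), and was lost without the 3 steep-GC libraries (adjusted p = 0.0883). Snord104, a small nucleolar RNA, rose from 3.09, 2.18, 3.56, 4.62 and 3.43 CPM to 6.76, 3.75, 8.91, 5.38 and 10.6 CPM (adjusted p = 0.0116) with overlap. It was lost without ZT13 replicate 2 or ZT17 replicate 3 (largest adjusted p = 0.0601) and without the 3 steep-GC libraries (adjusted p = 0.0771). Nr4a1, the only one of 25 immediate early genes to pass, was at 20.4, 25.9, 45.5, 54.8 and 61.5 CPM at ZT13 and 64.8, 46.8, 127, 92.3 and 90.1 CPM at ZT17 with overlap (adjusted p = 0.0209), and was lost without ZT13 replicate 1 or 2 or ZT17 replicate 3 (largest adjusted p = 0.134). The list as a whole had a median of 0.33, with 22 of 25 differences positive (9278 of 19120 over all genes tested). At an unadjusted p under 0.05 in edgeR 8 of the 25 were higher and 1 lower, against 1943 higher and 2210 lower over all genes. The list had 3 higher with GC and length offsets, 0 without the 3 steep-GC libraries and 0 to 4 when single libraries were left out, with 4 without ZT13 replicate 4, 3 without ZT13 replicate 5 or ZT17 replicate 2, and 2 without ZT17 replicate 4. Fos and Egr1 had log2 differences of 0.53 and 0.61 with wide errors (adjusted p = 0.377 and 0.540).

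**Figure D4:**
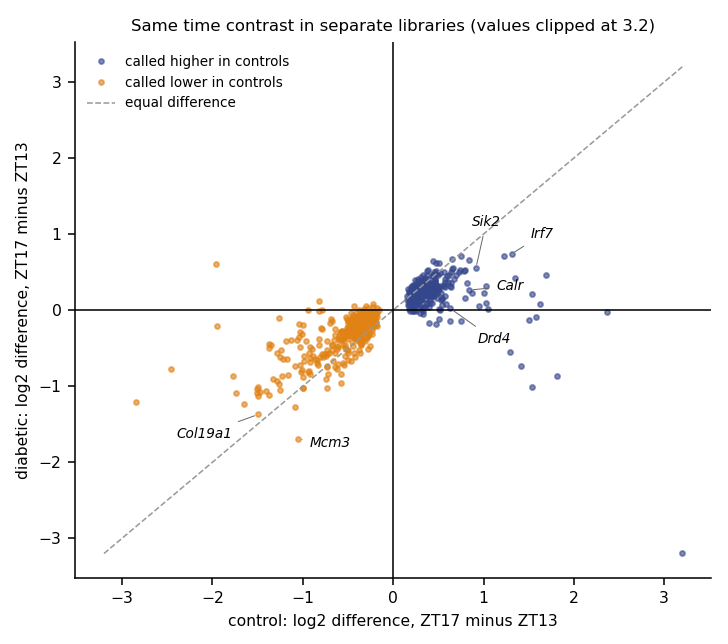
Log2 difference between ZT17 and ZT13 in diabetic retina (vertical axis, 4 libraries at each time) against that in control retina (horizontal axis, 5 libraries at each time) for the 635 genes called in controls, with values beyond 3.2 drawn at 3.2. Of the genes called higher in controls 93.1% had the same sign in diabetic retina, and of those called lower 96.7%.

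The diabetic libraries, which share no sample with the control libraries, give the same contrast in mice of another genotype. Of the 306 genes that rose in controls 285 (93.1%) had a positive difference in diabetic retina, and of the 329 that fell 318 (96.7%) had a negative one, against 70.1% with equal sign among all genes tested. The diabetic test called 82 of the 306 higher and 62 of the 329 lower, and 0 in the opposite direction (calls over all genes in diabetic retina, 2.06%, of which 1.05% higher and 1.00% lower). Median differences were smaller in diabetic retina, at 0.23 for the risen and -0.29 for the fallen genes. The genes were selected in the controls, so this order of the medians is fixed in part by the selection.

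The diabetic ZT17 group also holds a library with a steep GC trend, replicate 3, at 0.64 against -0.04 to 0.03 in the other diabetic ZT17 libraries and -0.26 to 0.19 at diabetic ZT13. Without it, 86.9% of the risen genes had a positive and 91.8% of the fallen genes a negative difference, against 61.3% with equal sign among all genes, and 28 were called higher and 23 lower. With GC and length offsets the shares were 89.9% and 90.9% against 62.9%, and 86 and 89 were called. Across the fits that left out a single diabetic library, 28 to 104 of the risen and 23 to 71 of the fallen genes were called, with 37 and 27 without ZT13 replicate 3, 50 and 44 without ZT13 replicate 5, 58 and 40 without ZT13 replicate 1, and 31 and 24 without ZT17 replicate 5.

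In diabetic retina ER chaperones had 5 of 26 members higher and 0 lower, heat shock proteins 6 of 25 and 0, and DNA replication and repair 0 higher and 4 of 34 lower. Both glycolysis lists had 0 calls there, with medians of 0.14 and 0.03, as did the 3 cold-inducible genes, with a median of -0.28. Of the 6 clock-controlled retinal genes 1 was higher and 1 lower. Mcm3 had a log2 difference of -1.70 (adjusted p = 8.40e-07, edgeR), Dip2b of 0.48 (6.27e-07), Pde8b of 0.49 (5.78e-06) and Sik2 of 0.55 (0.00190).

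Drd4 had a log2 difference of 0.02 in diabetic retina (adjusted p = 0.960, edgeR), Sdf2l1 of 0.09 (0.870), Acadm of -0.00 (0.993) and Hnrnpdl of -0.10 (0.507). A difference between genotypes was tested directly as control minus diabetic, and it did not pass for Drd4 (0.61, SE 0.20, adjusted p = 0.999), Sdf2l1 (0.93, adjusted p = 0.999), Acadm (-0.38, adjusted p = 0.985) or Hnrnpdl (-0.35, adjusted p = 0.888). Only 1 gene passed that test, Samd7, a Polycomb-associated repressor of photoreceptors (0.00523% of genes tested; 874 genes had an unadjusted p under 0.05, and DESeq2 and limma-voom also called 1 gene each). Its call was lost in 7 of 18 fits that left out a single library, those without control ZT13 replicate 1 or 2, control ZT17 replicate 3, diabetic ZT13 replicate 3 or 4, or diabetic ZT17 replicate 4 or 5 (largest adjusted p = 0.102, edgeR), as well as with thinned counts and with only the groups compared. The genes next in order of p were the growth factor gene Fgf9 (-0.46, SE 0.11, adjusted p = 0.643) and Ypel2 (-0.33, SE 0.08, adjusted p = 0.866), which did not pass. Samd7 stood at 128, 122, 153, 168 and 163 CPM in the control ZT13 libraries and 174, 153, 188, 164 and 163 CPM in the control ZT17 libraries, which overlap. In diabetic retina it fell from 177 ± 8.26 to 125 ± 13.6 CPM (n = 4 each; adjusted p = 0.00145), and the difference between genotypes was 0.70 on the log2 scale (SE 0.12, adjusted p = 0.0122, edgeR).

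**Figure D5:**
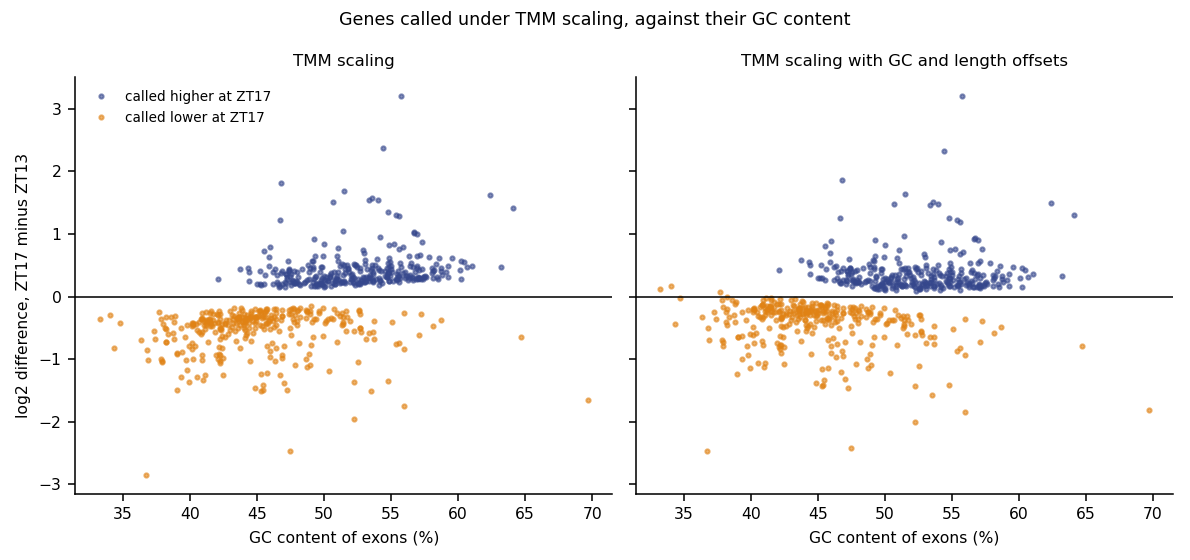
Log2 difference between ZT17 and ZT13 in control retina against the GC content of exons in percent, for the genes called higher (blue) and lower (orange), under TMM scaling (left) and with GC and length offsets added (right); values beyond 3.2 are drawn at 3.2. The blue points have a median GC content of 52.5% and the orange points one of 44.5%, and with offsets 3 orange points are above 0.

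The direction of a call went with base composition. The exons of the risen genes had a median GC content of 52.5%, those of the fallen genes 44.5%, and those of all tested genes 49.0%. With offsets for GC content and length, no risen gene and 3 fallen genes changed sign. Cirbp, which fell, has exons of higher GC content than the median tested gene, and Hspa8, which rose, of lower. The part of base composition in the remaining differences was not tested. Of 90 named genes that passed the test, 48 did so in every fit that left out a single library, and 12 in every setting tried: Sik2, Zdhhc5, Aqp1, Irf7, Manf, Xbp1, Calr and Hspa8 among the risen genes, and Glb1l2, Cirbp, Col19a1 and Pdzph1 among the fallen. When only the 10 control libraries entered the fit 58 of the 90 lost their call. With GC and length offsets 11 lost it, namely Cacna2d4, Cldn5, Hist1h2bb, Ldha, Nfil3, Pfkl, Pgam1, Rbm3, Slc16a3, Snhg11 and Xrcc5. Without the 3 steep-GC libraries 45 lost it, namely Acly, Aldoa, Brca2, Cacna2d4, Cd46, Cdhr1, Cldn5, Creld2, Cryaa, Cryab, Cyp26b1, Ddit3, Dnajb1, Drd2, Eno2, Esrrb, Gngt2, Grm6, Guca1b, Hist1h2ac, Hist1h2bb, Hist1h2bc, Hk2, Hsp90ab1, Igf1r, Impg1, Kif20b, Ldha, Mef2d, Miat, Nfil3, Nr4a1, Pdia4, Pfkl, Pfkp, Pgam1, Psmc4, Rbm3, Rpl13a, Slc16a3, Snhg11, Snord104, Stip1, Tpi1 and Xrcc5. Without the 2 libraries with lens transcripts 13 lost it, namely Ciart, Cpt1a, Cryaa, Cryab, Guca1b, Hist1h2ac, Impg1, Lss, Miat, Nfil3, Pdia3, Pfkp and Sag. Among the other lists given with calls, leaving out single libraries gave 1 to 3 higher and 0 to 3 lower of the rod genes, 1 to 3 higher and 0 to 1 lower of the cone genes, 1 to 3 higher and 0 to 3 lower of the outer segment and ciliary genes, 0 to 4 higher of the photoreceptor transcription factors, and 1 to 5 higher and 0 to 2 lower of the synapse and channel genes. It gave 1 to 5 lower of the DNA replication and repair genes, 0 to 4 lower of the nuclear long non-coding RNAs, 1 to 2 lower and 0 to 1 higher of the fatty acid oxidation genes and 0 to 4 higher of the ATF4 targets.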

How the data were processed

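Total RNA of 58 mouse retinas had been sequenced after depletion of ribosomal RNA. Per the labels and the study's methods, the authors checked reads with FastQC, aligned them to GRCm38.p5 with STAR 2.7.4a and counted them per gene with HTSeq 0.11.1. The deposited values are raw read counts per gene, merged over all libraries, and whether the counting used strand is not given in the sources used here. The authors' own normalization used DESeq2 1.26.0.

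From these counts, CPM values were computed on TMM-scaled library sizes, and 19120 of 52459 genes with a median above 4 normalized counts were tested. edgeR 4.0.16 (R 4.3.3) fitted a quasi-likelihood model with 1 mean for each of 12 genotype and time groups to all 58 libraries, with Benjamini-Hochberg adjustment over all genes tested and a threshold of 0.05. Control ZT17 against ZT13, the same contrast in diabetic retina, and the difference of both were tested. GC content and exon length came from a Gencode annotation of GRCm38 and were known for 18516 of the tested genes. Promoters came from RefSeq (GRCm38.p6), with an entry for 105 of the 127 genes given with values. The model was tested on simulated data.

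Alternatives were DESeq2 1.42.0, limma-voom (limma 3.58.1), RLE and upper quartile factors, other filters, thinning to 7773117 counts, offsets for GC and length, a fit of the compared groups only (10 control or 8 diabetic libraries), a replicate block, and leaving out single libraries. Those that leave out the steep-GC or lens libraries, or fit the compared groups with offsets and no block, and the recount of signs in diabetic retina without single libraries or with offsets, were chosen after seeing the data. The study's methods describe individual retinal samples from biological replicates, and do not state outright that each library is a separate mouse. No replicate pair was a duplicate within sampling noise. Depth per library is given with the results, and it limits low-level genes most.

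Genes were selected by a fixed rule: the 12 risen and 12 fallen genes with the smallest adjusted p, the 5 and 5 with the largest log2 difference at a mean of at least 50 normalized counts, all clock list members, up to 6 members of each other list by smallest p, and the 3 genes with the smallest p for the difference between genotypes, leaving out gene models without an established name. Many selected list members, those of the clock lists included, are given only in the counts of their list. Members of lists outside this rule that are given as context were chosen after their values were seen. Some members counted in the lists are not reported here by name. The comparison and the gene lists were chosen with earlier results of these data known.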

Additional observations from a re-analysis of the deposited data

Results flagged for a closer look

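In 12 of 254 groups of 5 library values examined (127 genes at ZT13 and ZT17), 1 library lay far from the rest of its group by Dixon's criterion, where chance gives about 1 in 20 groups. At ZT17, replicate 5 was far above the others for the lens crystallins Cryaa (1053.6 CPM) and Cryab (367.0 CPM), which went with the lens transcripts in that library. In ZT17 replicate 3, Miat was highest at 26.3 CPM and Col19a1 lowest at 3.60 CPM. Replicate 4 was lowest for Adcy1 (506.6 CPM) and Lss (51.9 CPM), replicate 2 for Cys1 (15.9 CPM) and replicate 1 for Sdf2l1 (4.64 CPM). At ZT13, replicate 1 was highest for Pdia6 (56.9 CPM), replicate 3 for Opn1sw (454.0 CPM) and replicate 5 for Lss (75.0 CPM), and replicate 2 was lowest for Impg1 (334.9 CPM).

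The difference between ZT17 and ZT13 differed between genotypes for Samd7, by 0.70 on the log2 scale (control minus diabetic, adjusted p = 0.0122, edgeR's quasi-likelihood test), with a control difference that did not pass and a fall in diabetic retina. The call was lost in 7 of 18 fits that left out a single library.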

How the results depend on the processing

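The count of 635 genes in control retina stayed within 1.5 times under DESeq2 (832), limma-voom (618), RLE (623) and upper quartile factors (711), a stricter filter (696), thinning (437), GC and length offsets (796) and offsets without the 2 lens libraries (634). It was 375 with no filter on low counts, 60 with only the groups compared, 254 with those groups and offsets, 132 without the 3 steep-GC libraries and 1258 (502 higher, 756 lower) without the 2 lens libraries. It was 22 with a replicate block and 127 with the block and offsets, where 77 and 44 of the 90 named calls were lost. The deviations of same-numbered libraries correlated from -0.55 to 0.36, and 0 of 5 ZT13 libraries correlated best with their own number. ZT13 replicate 4 correlated at 0.66 and 0.76 with ZT17 replicates 1 and 3, the other steep-GC libraries. Because the GC trend enters these correlations, they cannot decide whether replicate numbers mark a shared round of collection or preparation, which was not tested. Leaving out single libraries gave 190 to 1515: 353, 214, 292 and 1515 without ZT13 replicates 1, 2, 3 and 4, and 328, 1311 and 190 without ZT17 replicates 1, 2 and 3. The cause of these changes was not tested.

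In diabetic retina the count of 393 became 189 with no filter, 215 with thinning, 764 with offsets, 0 with only the groups compared, 22 with those groups and offsets, 0 with the replicate block, 104 with the block and offsets, and 125 to 621 when single libraries were left out. The single gene that differed between genotypes was lost (0 genes) with thinning, with only the groups compared with or without offsets, and in 7 of 18 fits that left out a library, which gave 0 to 1.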

Other observations

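Bipolar cell markers had 2 of 8 members higher at ZT17 and 0 lower. Grm6, the glutamate receptor of ON bipolar cells, rose from 142 ± 10.9 to 185 ± 11.4 CPM (mean ± SD, n = 5 each; adjusted p = 0.00641, edgeR's quasi-likelihood test), and did so in all fits that left out a single control library. Without the 3 steep-GC libraries its call was lost (adjusted p = 0.0808), and 0 of the 8 markers passed. Muller glia, amacrine, ganglion, horizontal and astrocyte markers had 0 calls in edgeR and in DESeq2. At an unadjusted p under 0.05 in edgeR 4 of 8 Muller glia markers were higher and 0 lower, against 1943 higher and 2210 lower of all 19120 genes tested. Of these 8, 1 was called higher with GC and length offsets and 0 to 1 when single libraries were left out. Among endothelial and pericyte markers 1 of 8 rose, Cldn5, a tight junction protein, from 5.96 ± 0.805 to 8.72 ± 0.578 CPM (adjusted p = 0.0226), which was lost without ZT13 replicate 3 or ZT17 replicate 3 (largest adjusted p = 0.0765), with GC and length offsets (adjusted p = 0.0923) and without the 3 steep-GC libraries (adjusted p = 0.195).

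Replication histone genes had 3 of 53 members higher and 0 lower, with a median log2 difference of 0.40 in control retina and -0.05 in diabetic retina. Hist1h2bc rose from 51.6 ± 5.27 to 72.3 ± 8.31 CPM (n = 5 each; adjusted p = 0.00602, edgeR), and Hist1h2bb and Hist1h2ac had adjusted p of 0.0447 and 0.0436. Hist1h2bb lost its call in 6 and Hist1h2ac in 7 of the 10 fits that left out a single library (largest adjusted p = 0.200 and 0.150). The list had 1 higher without ZT13 replicate 1, 2 or 3 or ZT17 replicate 3 or 5, 5 without ZT17 replicate 2, and 0 of 53 without the 3 steep-GC libraries. These genes are near-identical copies and reads may be split between them, so the values of single members are uncertain. Of 82 cytosolic ribosomal protein genes 1 rose, Rpl13a (7.50 ± 1.39 and 10.7 ± 1.01 CPM; adjusted p = 0.0299), whose level is low for this family. The median of the ribosomal list was 0.22, and 0 to 16 members were called when single libraries were left out. At an unadjusted p under 0.05 in edgeR 44 of the 82 were higher and 0 lower, against 1943 higher and 2210 lower of all 19120 genes tested.

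Of 7 tested transcripts of the mitochondrial genome 0 passed in edgeR or DESeq2. At an unadjusted p under 0.05 in edgeR 0 of the 7 were higher and 1 lower, against 1943 higher and 2210 lower of all 19120 genes tested. The median of the 7 was -0.34. The median was -0.03 without the 3 libraries with the steep GC trend. Of 37 proteasome subunits 1 rose, Psmc4 (adjusted p = 0.0208), of 22 insulin signalling genes 1, Igf1r (adjusted p = 0.0219), and of 19 fatty acid synthesis genes 1, Acly (adjusted p = 0.0174), each lost without ZT13 replicate 2 or ZT17 replicate 3. Glucocorticoid targets (19 tested), NRF2 and metallothionein genes (21), autophagy and lysosome genes (29), amino acid transporters and tRNA synthetases (26), growth factor and angiogenic genes (26), complex III, IV and V subunits (34) and mitochondrial ribosomal proteins (76) had 0 calls in edgeR. At an unadjusted p under 0.05 in edgeR these lists had 3, 5, 4, 1, 6, 7 and 9 members higher and 0, 1, 1, 2, 3, 1 and 5 lower. Over all 19120 genes tested the counts at that unadjusted threshold were 1943 higher and 2210 lower. DESeq2 called 1 glucocorticoid target higher, 1 growth factor gene higher and 1 lower, 1 mitochondrial ribosomal protein lower, and 0 in the other 4 lists. When single libraries were left out, these lists had at most 1, 3, 2, 0, 2, 2 and 1 members higher and 0, 0, 0, 1, 1, 1 and 2 lower. With GC and length offsets 1 gene each was higher in the glucocorticoid, NRF2 and autophagy lists and 1 each lower in the autophagy and amino acid lists, and without the 3 steep-GC libraries 1 growth factor gene was higher.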
